A study of Mus musculus with 11 samples.

Results

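Occludin, the ZO proteins and the scaffolds around them form the core of the tight junction, and their transcripts were followed here in mouse colorectal organoids, which are three-dimensional epithelial cultures raised from dissociated colon in Matrigel. The 9 genes were taken by symbol from the deposited count table of 47131 genes and all 9 were found: Ocln, Marveld2 and Marveld3, F11r, Tjp1 and Tjp3, Cgn, Patj and Pard3. The organoids came from female C57BL/6J mice aged 6 to 8 weeks, with no genetic change named in the labels. One group of 6 libraries received NAP at 10 pM for 48 h. The control group of 5 libraries received phosphate-buffered saline as vehicle according to the treatment protocol, although the sample descriptions call it untreated. The labels do not spell out NAP. They number the libraries as biological replicates without saying whether separate animals or cultures were used. Every p-value below therefore reflects library-to-library spread alone, and part of that may be technical. Between the counts of controls 2 and 5 the chi-square per degree of freedom was 7.68, against 44.2 to 324 for the other control pairs. Among NAP 2, 4 and 5 it was 14.7 to 24.4, against 63.9 to 153 for the other NAP pairs. Whether such libraries share a source is not given, and each was counted as a separate library.

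Tight junctions seal the space between neighbouring epithelial cells near the apical surface. Claudins form the strands, and the MARVEL proteins occludin, tricellulin (Marveld2) and MarvelD3 lie in or beside them. JAM-A, the product of F11r, is an immunoglobulin-type adhesion receptor. ZO proteins bind these membrane proteins from inside and link them to actin, cingulin (Cgn) links the plaque to actomyosin and microtubules, and PATJ and PAR-3 belong to the polarity complexes that place the junction. In the colon this apparatus limits the passage of solutes and bacterial products across the epithelium.

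Between 16546263 and 21947414 gene counts were available per library, and all 9 genes were well covered, with 328 to 9284 counts in any library. Epithelial markers summed to 9664 to 18166 CPM per library (8 genes; CPM is a gene's count relative to the total of its library, with totals adjusted by TMM). Fibroblast and muscle markers summed to at most 4.65 CPM outside NAP 5, where they reached 21.9 CPM, and immune markers to at most 23.9 CPM. Endothelial markers summed to 4.01 to 6.74 CPM. The pan-leukocyte marker Ptprc did not exceed 0.788 CPM in any library, while the immune marker Cd68 reached 13.96 CPM. The endothelial marker Cdh5 did not exceed 1.12 CPM, while Vwf reached 4.72 CPM. The 3 immune markers tested in edgeR had higher means with NAP, none under an adjusted p of 0.05. Their log2 fold changes were 1.38 for Itgam (adjusted p = 0.106), 0.58 for Cd68 (0.287) and 0.81 for Lyz2 (0.598). In such bulk libraries, fewer cells of a type and less RNA per cell cannot be told apart.

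Promoter sequences are shown for the genes with the largest fold changes in either direction, so that a reader can compare the regions around their start sites. RefSeq promoters of GRCm38.p6, 250 bases before to 50 bases after a start site, were found for 8 of the 9 genes, all but Marveld3. Each is printed 5′ to 3′ on the strand of the gene, and capitals mark a match to 1 of 5 motifs searched on both strands: the GC box GGGCGG, the AP-1 site TGANTCA, the grainyhead-like site AACNGGTT, the E-box CAGCTG and the TATA box TATAAA.
Ocln, upstream start, chr13:100552669-100552968, minus strand: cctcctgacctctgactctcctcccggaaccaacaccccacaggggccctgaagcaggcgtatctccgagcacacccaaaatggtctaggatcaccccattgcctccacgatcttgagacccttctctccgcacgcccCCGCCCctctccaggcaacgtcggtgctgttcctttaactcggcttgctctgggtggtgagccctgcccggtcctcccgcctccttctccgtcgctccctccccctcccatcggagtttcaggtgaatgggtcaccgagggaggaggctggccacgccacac
F11r, chr1:171437311-171437610, plus strand: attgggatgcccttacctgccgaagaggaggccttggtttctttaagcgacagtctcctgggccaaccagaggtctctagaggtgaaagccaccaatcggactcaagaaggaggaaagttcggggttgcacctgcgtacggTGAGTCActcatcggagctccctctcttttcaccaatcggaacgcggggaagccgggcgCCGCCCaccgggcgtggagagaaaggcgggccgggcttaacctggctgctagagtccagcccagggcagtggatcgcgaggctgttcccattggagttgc
Tjp1, chr7:65371195-65371494, minus strand: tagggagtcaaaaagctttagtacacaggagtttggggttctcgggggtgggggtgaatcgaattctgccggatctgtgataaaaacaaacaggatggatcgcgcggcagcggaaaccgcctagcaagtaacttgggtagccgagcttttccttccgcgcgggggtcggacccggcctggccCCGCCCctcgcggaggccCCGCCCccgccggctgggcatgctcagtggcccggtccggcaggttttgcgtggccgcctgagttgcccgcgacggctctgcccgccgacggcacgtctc
Tjp3, first start, chr10:81291532-81291831, minus strand: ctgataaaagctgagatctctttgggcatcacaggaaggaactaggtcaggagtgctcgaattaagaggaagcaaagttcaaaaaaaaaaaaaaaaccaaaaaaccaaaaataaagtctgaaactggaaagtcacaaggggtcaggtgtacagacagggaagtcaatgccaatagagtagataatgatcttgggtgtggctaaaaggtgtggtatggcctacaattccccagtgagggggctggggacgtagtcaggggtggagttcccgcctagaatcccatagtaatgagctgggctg
Tjp3, second start, chr10:81291218-81291517, minus strand: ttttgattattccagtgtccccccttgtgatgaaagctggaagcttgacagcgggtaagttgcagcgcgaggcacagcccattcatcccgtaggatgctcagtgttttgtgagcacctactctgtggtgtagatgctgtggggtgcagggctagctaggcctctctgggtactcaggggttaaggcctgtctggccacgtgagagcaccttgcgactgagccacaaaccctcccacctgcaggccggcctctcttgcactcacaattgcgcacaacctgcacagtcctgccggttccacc
A GC box began 112 bases before the upstream Ocln start and 50 bases before the F11r start, and the Tjp1 window held 2, beginning 68 and 50 bases before the start. F11r also held an AP-1 match, 109 bases before the start, and 7.81% of the 32851 promoters in the table hold one. A window of Patj, not printed here, held another, 106 bases before its start. An AP-1 match was thus present for 2 of the 8 genes, against 8.97% of genes in the table. Neither Tjp3 window held any of the 5 motifs. A GC box was present for 7 of the 8 genes in at least 1 window, against 35.7% of all promoters and 38.2% of genes in the table. The Cgn window held 6 GC boxes and the single grainyhead-like match among these genes, a motif present in 2.09% of all promoters. These matches describe letters in the window and not occupancy.

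Per kilobase of gene length, the scale on which levels of different genes can be set side by side, Tjp3 and F11r were the highest of the 9 in control organoids, at 101.6 ± 19.3 and 98.1 ± 16.9 CPM per kilobase (mean ± SD, n = 5). They did not differ beyond their spread, with Tjp3 above F11r in 3 of 5 libraries. Ocln (29.1 ± 3.45) and Cgn (29.0 ± 4.49) followed, again within each other's spread. F11r was above Ocln in all 5 controls, with a mean ratio of 3.40 over the libraries. Marveld3 stood at 19.9 ± 3.79, Patj at 14.7 ± 1.59, Tjp1 at 12.8 ± 4.44, Marveld2 at 10.1 ± 2.55 and Pard3 at 6.80 ± 0.49 CPM per kilobase. Tjp1 and its neighbours in that order overlapped: Patj was above Tjp1 in 2 of 5 controls and Tjp1 above Marveld2 in 4 of 5.

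The order differed in the NAP libraries (mean ± SD, n = 6). F11r was first at 163.6 ± 49.6 CPM per kilobase, above Tjp3 in 6 of 6 libraries. Tjp3 (63 ± 18) and Ocln (59.0 ± 22.3) were next and could not be ordered, with Tjp3 higher in 3 of 6. Ocln was above Cgn (33.2 ± 9.74) in 6 of 6 libraries. Tjp1, at 20.5 ± 4.07, lay above Marveld3 (17.8 ± 3.69) in 4 of 6 and so did not separate from it. Patj, Marveld2 and Pard3 stayed at the lower end, at 16.8 ± 2.00, 11.9 ± 1.20 and 7.27 ± 0.90.

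**Figure D1:**
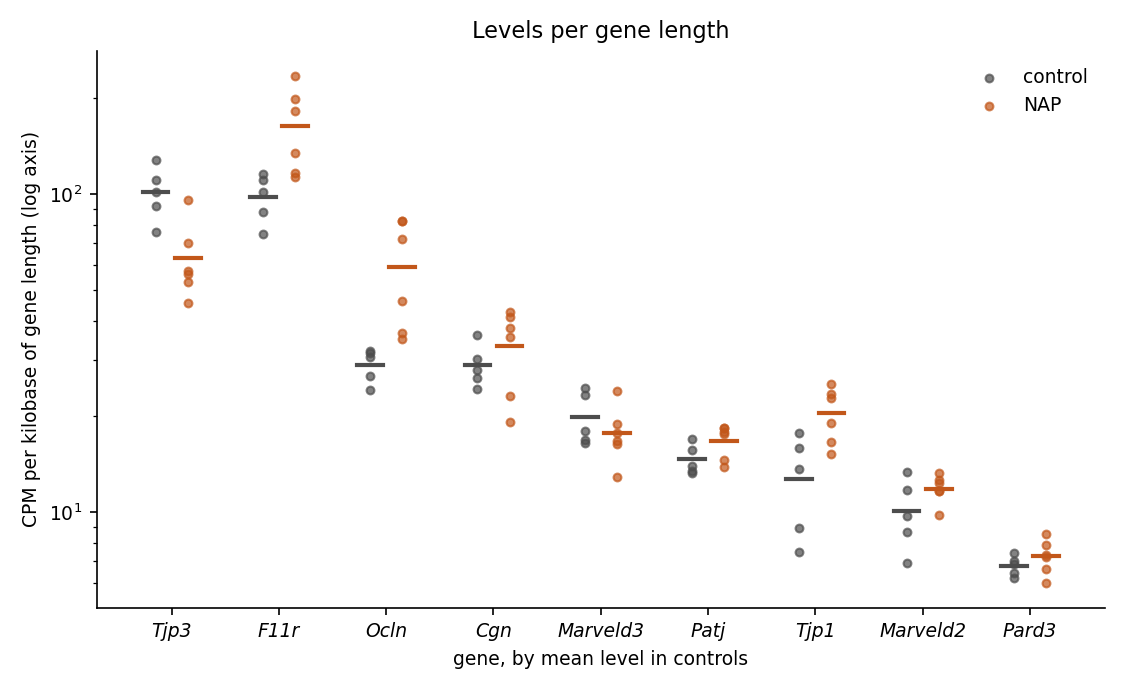
Level of each gene in CPM per kilobase of gene length (log axis), with genes ordered by their control mean; each point is 1 library and each bar the mean of 5 control or 6 NAP libraries. Tjp3 and F11r share the top of the control order, whereas F11r is above Tjp3 in 6 of 6 NAP libraries.

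Next, the levels of these transcripts after NAP were set against the controls. The larger differences were in 4 genes: Ocln, F11r and Tjp1 had higher means with NAP, and Tjp3 a lower one. The quasi-likelihood test of edgeR, run over 14840 genes, left 0 of the 9 under an adjusted p of 0.05, against 315 genes in all (2.12%, made up of 1.05% higher and 1.07% lower). An unadjusted p below 0.05 was reached by 4 of the 9 against 23.6% of all genes, 3 of them higher (10.8% of all) and 1 lower (12.7% of all). With DESeq2 these 4 genes passed an adjusted p of 0.05, in a fit that called 11.6% of genes, and with limma on voom values 0 of the 9 passed (2.21% of genes). At an adjusted p of 0.1 in edgeR, Ocln, F11r and Tjp3 passed, as did 9.97% of all genes. The median log2 fold change was 0.19 over the 9 genes and −0.07 over all tested genes, and 7 of the 9 were positive and 2 negative, against 44.7% and 55.3% of all.

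**Figure D2:**
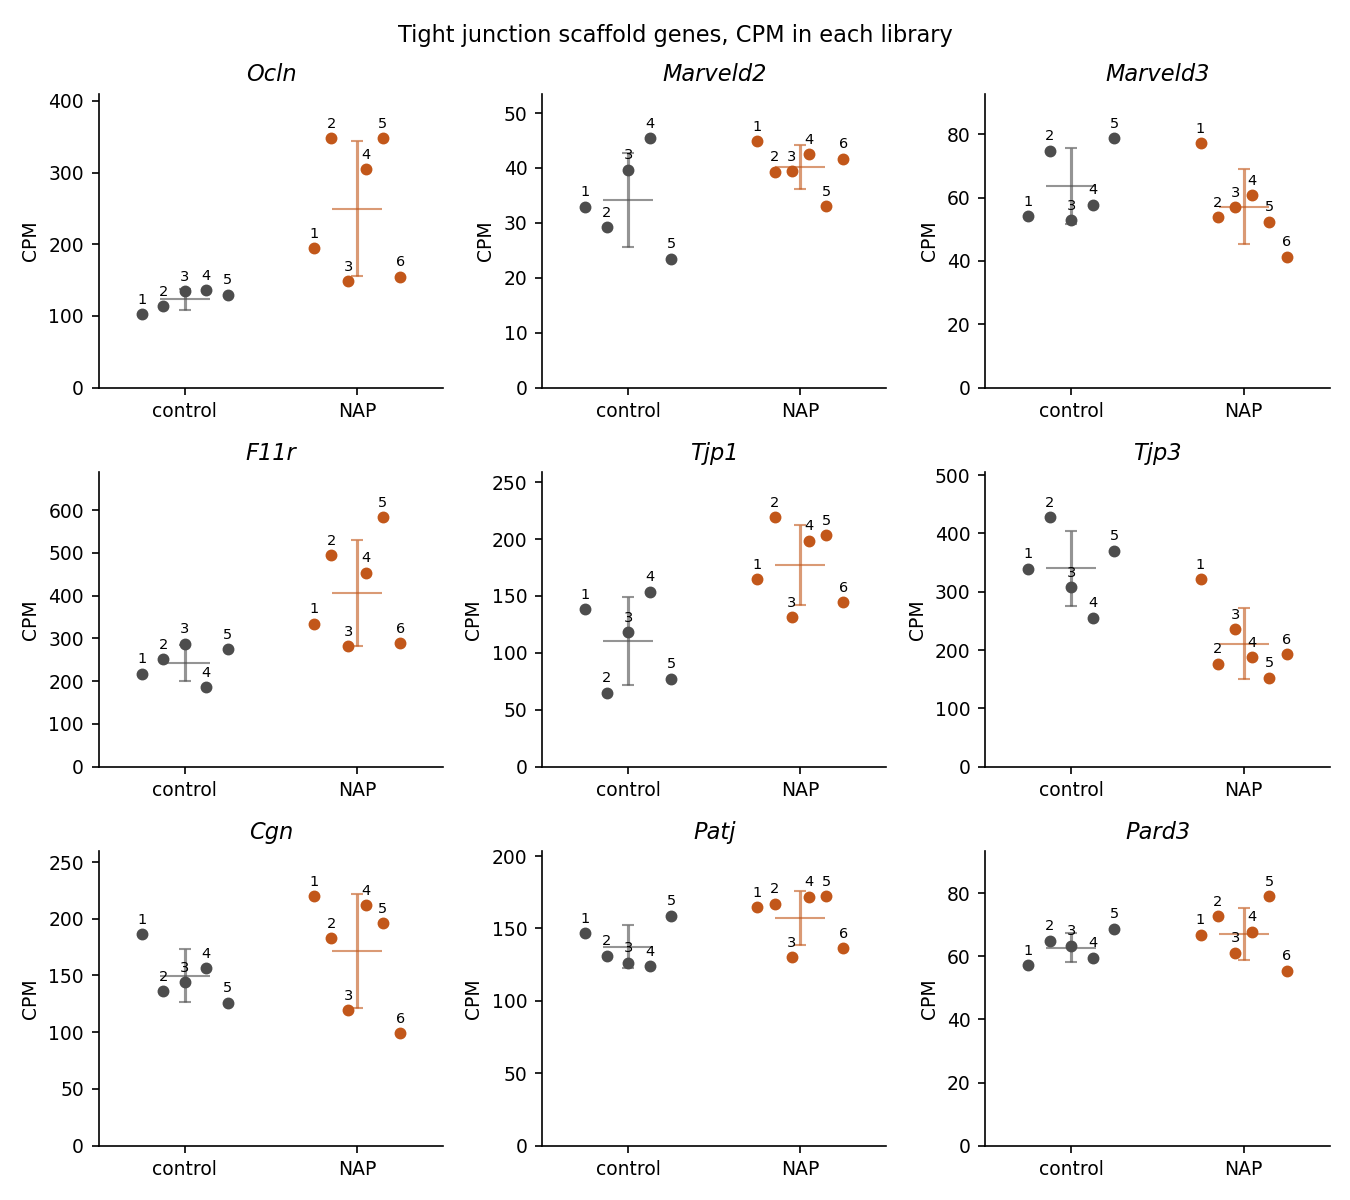
CPM of each gene in every library, with the replicate number beside each point; the horizontal bar and whiskers give mean ± SD of 5 control and 6 NAP libraries. Ocln is the 1 gene whose groups do not overlap, and NAP 2, 4 and 5 carry its highest values.

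Among the MARVEL genes, Ocln stood apart. Ocln, identifier 18260, lies on the minus strand of chromosome 13 from 100633012 to 100689226 of GRCm39 and encodes occludin, a strand-associated membrane protein. Controls 1 to 5 held 102, 113, 134, 136 and 129.7 CPM. The NAP libraries ranged from 148 CPM in NAP 3 through a median of 249 to 348 CPM in NAP 2. Every NAP library was above every control, which held for 1 of the 9 genes and in either direction for 4.71% of all tested genes. NAP 2, 4 and 5 held 304 to 348 CPM while NAP 3 and NAP 6, at 148 and 155, lay just above the highest control. The spread was accordingly wider with NAP than in controls, with a coefficient of variation of 37.8% against 11.9%. The edgeR log2 fold change was 1.02 (SE 0.25, 95% interval 0.47 to 1.57, a 2.03-fold higher mean), with an adjusted p of 0.0540, and adjusted p = 0.00465 in DESeq2. In edgeR it passed without NAP 1 (adjusted p = 0.0421, in a fit that called 5.58% of genes) or without NAP 3 (adjusted p = 0.0331, with 5.39% called). Over the 11 fits that each leave out 1 library its log2 fold change ranged from 0.90 to 1.14.

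Marveld2, which encodes tricellulin, the protein of junctions where 3 cells meet, also lies on chromosome 13, from 100732465 to 100753479 on the strand of Ocln and 43238 bases from it, with 1 gene of the table, Gm8847 (62 counts in all libraries together), between them. Its controls held 33.0, 29.2, 39.7, 45.4 and 23.5 CPM, and the NAP libraries 33.0 to 44.8 CPM with a median of 40.5. The NAP range lay inside the control range. Its log2 fold change was 0.23 (95% interval −0.14 to 0.61, edgeR adjusted p = 0.441), so a 1.53-fold higher mean lies at the edge of what these libraries allow. Without controls 2 and 5 the value was 0.054, and without controls 1 and 4 it was 0.41. The ratio of Ocln to Marveld2 per kilobase was 2.39 to 4.42 in controls and 2.97 to 8.42 with NAP. NAP 2, 4 and 5, at 7.08, 5.72 and 8.42, were above every control, and the other NAP libraries lay among the controls.

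Marveld3, identifier 73608, lies on chromosome 8 from 110674541 to 110688837 and encodes the third MARVEL protein of the tight junction. Controls held 54.2, 74.7, 52.9, 57.8 and 78.7 CPM. The NAP libraries held 41.3 to 77.2 CPM with a median of 55.4, and NAP 5 and NAP 6 were below every control. NAP 1, by contrast, was near the highest control, and the groups overlapped. Its log2 fold change of −0.16 (95% interval −0.54 to 0.22) did not pass in edgeR (adjusted p = 0.618), and its sign was the opposite, at 0.080, without controls 2 and 5.

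F11r, identifier 16456, spans 171265129 to 171292161 on the plus strand of chromosome 1. Controls held 218, 251, 288, 186 and 275 CPM. The NAP libraries ranged from 282 CPM in NAP 3 through a median of 394 to 583 CPM in NAP 5. Control 3 lay above NAP 3 and below the other 5 NAP libraries, so the groups met at that point alone. The log2 fold change was 0.74 (SE 0.23, 95% interval 0.25 to 1.23, a 1.67-fold higher mean, edgeR adjusted p = 0.0823, and adjusted p = 0.0208 in DESeq2). It ranged from 0.61 to 0.83 with 1 library left out at a time, with no edgeR call in any of the 11 fits.

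The ZO genes had fold changes of both signs. Tjp1 encodes ZO-1 and lies on chromosome 7 from 64945913 to 65177629. Its controls held 138, 64.8, 118, 154 and 77.1 CPM, and the NAP libraries 132 to 219 CPM with a median of 182. Controls 2 and 5 were low, and controls 1 and 4 lay within the NAP range. The log2 fold change was 0.68 (SE 0.24, 95% interval 0.16 to 1.20, edgeR adjusted p = 0.114, and adjusted p = 0.0492 in DESeq2). It was 0.40 without controls 2 and 5 (adjusted p = 0.182) and 1.06 without controls 1 and 4, where it passed in edgeR (adjusted p = 0.0284, in a fit that called 8.28% of genes).

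Tjp3 encodes ZO-3 and lies on chromosome 10 from 81109022 to 81127415. Its controls held 339.6, 428, 308, 255 and 371 CPM. The NAP libraries ranged from 153 CPM in NAP 5 through a median of 190.2 to 321 CPM in NAP 1. NAP 1 lay among the controls and the other 5 NAP libraries below all of them. The log2 fold change was −0.69 (SE 0.21, 95% interval −1.14 to −0.23, edgeR adjusted p = 0.0815, and adjusted p = 0.0269 in DESeq2). Without NAP 1 it was −0.85 and passed in edgeR (adjusted p = 0.0352, in a fit that called 5.58% of genes). Over the 11 fits that each leave out 1 library it ranged from −0.85 to −0.57, with an edgeR adjusted p of up to 0.186. At its 3′ end Tjp3 shares 60 bases with Apba3 on the opposite strand. Apba3 holds 9787 counts in all libraries together against 54007 for Tjp3, and reads from that stretch cannot be assigned without the strand setting.

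Ratios between these genes within a library are given as a description, chosen after the values were seen. Ocln per kilobase was 0.21 to 0.42 of Tjp3 in the controls and 0.48 to 1.80 of it in the NAP libraries, and the groups did not overlap. Tjp3 per kilobase was 4.29 to 17 times Tjp1 in the controls, highest in controls 2 and 5, and 1.94 to 5.03 times Tjp1 with NAP.

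**Figure D3:**
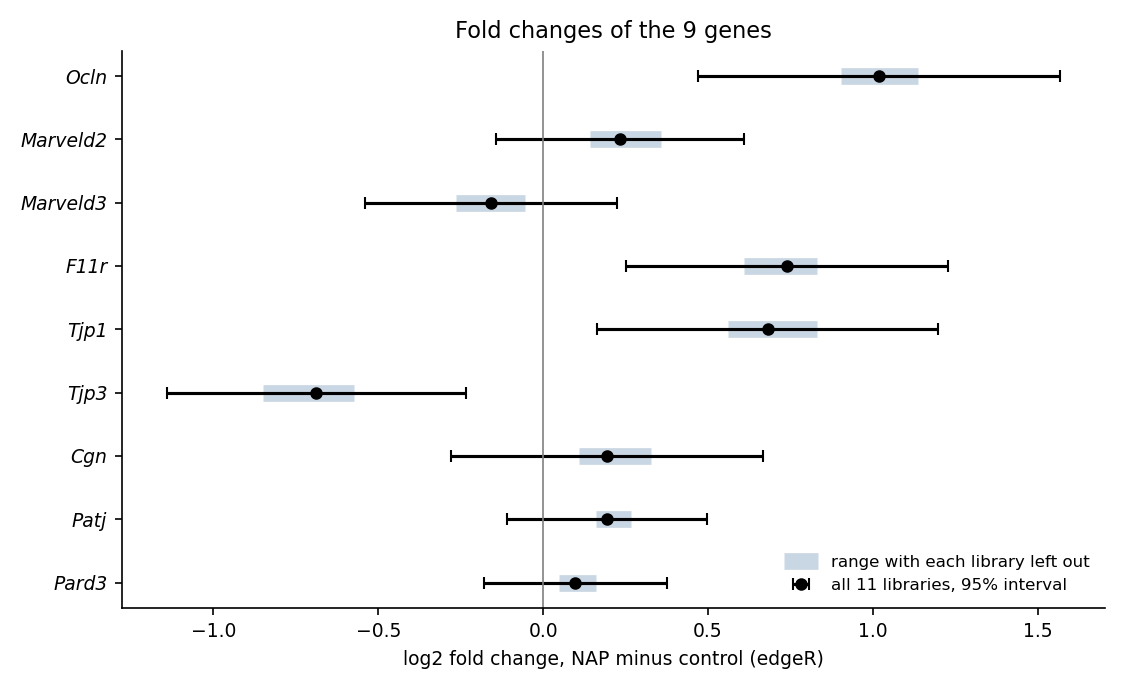
Log2 fold change (NAP minus control) of the 9 genes in edgeR; points and whiskers give the estimate and its 95% interval with all 11 libraries, and the pale bars the range when each library is left out in turn. The intervals of Ocln, F11r and Tjp1 lie above 0 and that of Tjp3 below 0, and no pale bar crosses 0.

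Cgn, the cingulin gene on chromosome 3 (94667376 to 94695036), had 186, 136, 144, 157 and 126 CPM in the controls. The NAP libraries ranged from 99.1 CPM in NAP 6 through a median of 189 to 219.7 CPM in NAP 1. NAP 3 and NAP 6 were below every control and NAP 1, 4 and 5 above every control, so the NAP group enclosed the controls. The log2 fold change was 0.19 (95% interval −0.28 to 0.67, edgeR adjusted p = 0.619).

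The polarity genes had small fold changes. Patj, whose product is a multi-PDZ scaffold of the Crumbs complex, lies on chromosome 4 from 98283803 to 98607840 and had 147, 131, 126, 124 and 159 CPM in the controls. The NAP libraries held 130.2 to 172 CPM with a median of 166, and NAP 1, 2, 4 and 5 were above every control. Its log2 fold change was 0.19 (95% interval −0.11 to 0.50, edgeR adjusted p = 0.425). Pard3, which encodes PAR-3 and lies on chromosome 8 from 127790131 to 128338767, had 57.1, 65.0, 63.3, 59.5 and 68.7 CPM in the controls and 55.5 to 79.0 CPM with a median of 67.3 in the NAP libraries. NAP 2 and NAP 5 lay above every control and NAP 6 below, so the groups overlapped. Its coefficient of variation in controls, 7.24%, was the lowest of the 9 genes, and its log2 fold change of 0.10 had a 95% interval of −0.18 to 0.38 (edgeR adjusted p = 0.675), which leaves a 1.3-fold higher mean at its upper edge.

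The NAP libraries were not alike in these genes. In NAP 2, 4 and 5 Ocln, F11r and Tjp1 were each higher than in the other NAP libraries, and Tjp3 was lower than in those. To describe how alike the genes were, each log2 CPM profile was centred on its mean over all 11 libraries, control and NAP together. The mean absolute difference between profiles was then taken, as a description without a test. The difference between the groups is thus part of each such value. Ocln and F11r differed by 0.21, and 0.276% of tested genes lay nearer to Ocln than F11r did. Patj and Pard3 differed by 0.11. Tjp3 lay farthest from Ocln, at 0.87, and its nearest neighbour among the 9 was Marveld3, at 0.29, with 8.07% of tested genes nearer. Genes picked as nearest in this way have fold changes close to those of Ocln or Tjp3 by selection. Their fold changes and calls are therefore no separate support. The 3 genes with a proper symbol nearest to Ocln were F2rl1, the protease-activated receptor gene (0.075), the microvillus gene Eps8 (0.13) and the endocytic kinase gene Aak1 (0.13). Their log2 fold changes were 1.04, 1.19 and 0.84, and F2rl1 and Eps8 passed in edgeR (adjusted p = 0.0442 and 0.0386). Both calls were lost without control 1, 2, 3 or 5 or NAP 2, 4 or 5 (adjusted p = 0.0503 to 0.118). Nearest to Tjp3 were Ten1 (0.094), the proteasome gene Psmb5 (0.10) and Bcl7b (0.10), at log2 fold changes of −0.74, −0.75 and −0.62. Psmb5 passed in edgeR (adjusted p = 0.0457), and did not without control 1, 2, 3 or 5 or NAP 2, 4, 5 or 6 (adjusted p = 0.0621 to 0.127) or with the GC trend removed (−0.46, adjusted p = 0.0894).

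**Figure D4:**
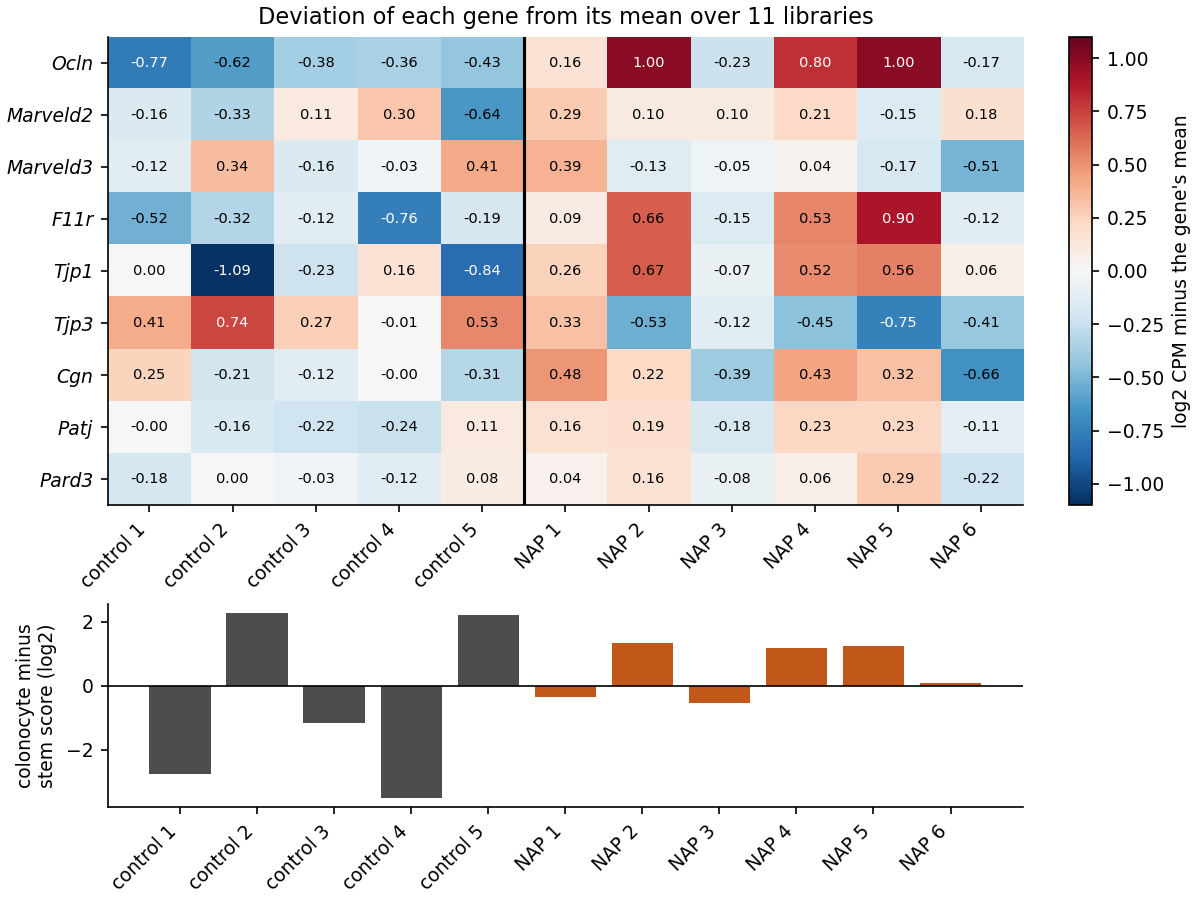
Upper panel, log2 CPM of each gene minus its mean over the 11 libraries; lower panel, mean log2 deviation of colonocyte markers minus that of stem cell markers in the same libraries. NAP 2, 4 and 5 hold the highest Ocln values, and Tjp1 is lowest in controls 2 and 5, where the marker score is highest.

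The controls differed in the balance of cell state markers, and some of the 9 genes were split in the same way. A score of absorptive colonocyte minus stem cell markers (12 and 11 tested genes) was 2.26 and 2.21 in controls 2 and 5, −2.75 and −3.51 in controls 1 and 4, −1.17 in control 3 and −0.55 to 1.34 with NAP. The summed colonocyte markers ran from 3645 to 19797 CPM in controls and from 9515 to 15544 CPM with NAP, and the stem cell markers from 292 to 2157 and from 493 to 863 CPM. Tjp1 and Marveld2 were lowest, and Marveld3 and Tjp3 highest among controls, in controls 2 and 5. F11r was lowest in controls 4 and 1. Controls 2 and 5 stood apart in other measures too. Rank correlations of gene deviations with gene length were −0.376 and −0.351 there, and −0.206 to 0.176 in the other libraries. Genes detected numbered 27218 and 25725, against 19828 to 22390 in the others. Tjp1 is longer than 87.8% of tested genes, and Patj and Pard3 are longer than 89.7% and 89.4%. Patj held 131 and 159 CPM in controls 2 and 5, against 124 to 147 CPM in the other controls. Pard3 held 65.0 and 68.7 CPM there, against 57.1 to 63.3 CPM. Which of these measures the genes followed was not tested. With the score as a covariate, edgeR gave log2 fold changes of 0.92 for Ocln, 0.60 for F11r, 0.92 for Tjp1 and −0.71 for Tjp3, all 4 past an adjusted p of 0.05 (0.0258, 0.0444, 0.0119 and 0.0226), in a fit that called 22.1% of all genes. The score was built from the same libraries, and its part in the results without it was not tested beyond this fit.

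The mitochondrial share of counts was 2.74% to 4.78% in controls and 5.17% to 8.08% with NAP, without overlap, and its part in these results was not tested. Base composition moved with these results as well. For each library, deviations from the gene means were rank-correlated with transcript GC content across genes, and the coefficient was 0.016 to 0.36 in the controls and −0.54 to 0.11 in the NAP libraries. The 2 genes of the 9 with negative fold changes had the highest GC content, 60.8% for Tjp3 and 59.5% for Marveld3, above 97.3% and 94.8% of tested genes. Ocln had the lowest, at 45.1%, with 18.7% of tested genes lower. F11r and Cgn, both with positive fold changes, stood at 53.2% and 54.2%, above 63.4% and 68.8% of tested genes. With the GC trend removed from each library, an alternative chosen after seeing the data, Ocln stood at 0.83 and F11r at 0.88 on the log2 scale, Tjp1 at 0.65, Tjp3 at −0.23 and Marveld3 at 0.25. None of the 9 passed in that edgeR fit (adjusted p = 0.123 for Ocln, 0.0894 for F11r, 0.149 for Tjp1 and 0.431 for Tjp3), in which 0.303% of genes did. With GC and length trends removed together, the values were 0.80 for Ocln, 0.97 for F11r, 0.55 for Tjp1, −0.27 for Tjp3 and 0.23 for Marveld3, in a fit where 0% of genes passed in edgeR and 2743 had an unadjusted p under 0.05. The part of base composition in these results was not tested beyond these fits.

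**Figure D5:**
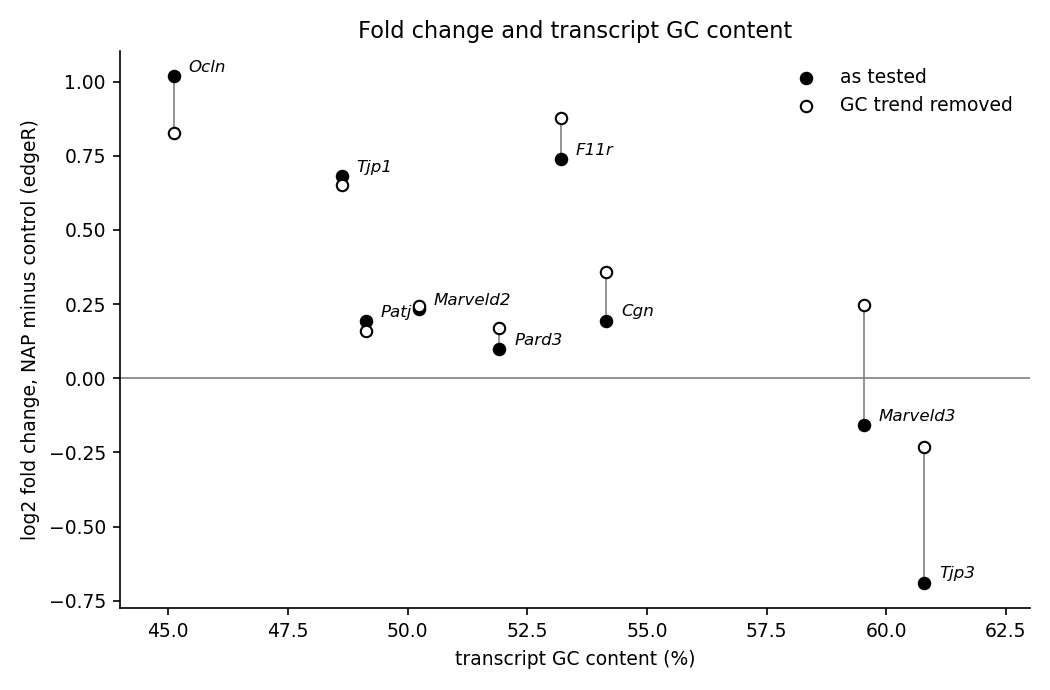
Log2 fold change (NAP minus control, edgeR) against transcript GC content for the 9 genes, before (filled) and after (open) a GC trend was removed from each library. Tjp3 goes from −0.69 to −0.23, Marveld3 from −0.16 to 0.25, Ocln from 1.02 to 0.83, F11r from 0.74 to 0.88 and Tjp1 from 0.68 to 0.65.

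Of 9 other adhesion receptors of the junction, 7 were tested, and 1, Cxadr, rose while none fell, against 1.05% and 1.07% of all tested genes. Cxadr encodes the coxsackievirus and adenovirus receptor, a JAM-like protein that binds ZO-1. Controls held 129.0, 179, 254, 164 and 209.1 CPM, and the NAP libraries 302 to 793 CPM, all above every control. It was 2.94-fold higher (log2 fold change 1.55, SE 0.31, edgeR adjusted p = 0.0386), highest in NAP 2, 4 and 5 at 739 to 793 CPM. The call was lost without control 1, 2 or 5 or NAP 2, 4 or 5 (adjusted p = 0.0853 to 0.112), where edgeR called no gene at all, and with the GC trend removed (adjusted p = 0.0621, log2 fold change 1.46). Lsr, a receptor of tricellular junctions, and Esam stood at −0.75 and −0.69 on the log2 scale without passing in edgeR (adjusted p = 0.243 and 0.353). Esam was barely detected, with 5 to 31 counts per library. The median over the 7 genes was 0.03.

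Among 19 genes of the apical polarity complexes, 18 were tested, 1 rose and none fell, where 1.05% and 1.07% of all tested genes did. At an unadjusted p below 0.05, 3 were higher and 2 lower, against 10.8% and 12.7% of all. The gene that rose was Mpp5, the gene of PALS1, which joins PATJ to Crumbs, found in the table under its older symbol. Its controls held 65.8, 57.8, 93.6, 61.7 and 67.4 CPM and its NAP libraries 92.5 to 189.9 CPM, with NAP 1 just under control 3. It was 1.98-fold higher (log2 fold change 0.98, SE 0.22, edgeR adjusted p = 0.0438). The call was lost without control 1, 2, 4 or 5 or NAP 2, 4, 5 or 6 (adjusted p = 0.0524 to 0.116). Its GC content was 39.9%, and with the GC trend removed the log2 fold change was 0.64 (adjusted p = 0.115). Lin7c and Pard6b, of the Crumbs and PAR complexes, stood at 0.71 and 0.76 and did not pass (adjusted p = 0.0616 and 0.1005). The 2 lower genes, named after their values were seen, were Scrib, a basolateral polarity gene, at 133 and 96.0 CPM on average in controls and NAP, and Pard6a at 9.34 and 5.49 CPM. The median over the 18 was −0.01, with 9 positive and 9 negative.

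The remaining lists held no call in edgeR. Of 19 further scaffolds and adaptors 18 were tested, 3 were higher and 1 lower at an unadjusted p below 0.05 (10.8% and 12.7% of all tested genes), and the median log2 fold change was 0.21. Magi3, a membrane-associated guanylate kinase, had 55.5 ± 6.20 CPM in controls (n = 5) and 85.1 ± 17.7 CPM with NAP (n = 6; edgeR adjusted p = 0.0625), and Dnmbp, the Cdc42 exchange factor Tuba, 113 ± 18.0 and 202 ± 73.1 CPM (adjusted p = 0.0761). In both genes every NAP library was above every control. In Sympk, named after its values were seen, every NAP library was below every control (146 and 113 CPM on average, log2 fold change −0.37). Groups did not overlap in these 3 of the 18 genes and in 4.71% of all tested genes. Of 20 claudins 9 were tested, with 5 positive and 4 negative and a median of 0.07. Cldn14 had 6.25 ± 4.59 and 1.33 ± 1.17 CPM (adjusted p = 0.0846) and Cldn12 52.3 ± 12.0 and 68.5 ± 4.73 CPM (adjusted p = 0.158).

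Junctional actomyosin genes were positive in 11 of 15 tested (44.7% of all tested genes), with a median of 0.32 and 3 higher at an unadjusted p below 0.05 (10.8% of all). Wasl, the gene of the actin regulator N-WASP, stood at a log2 fold change of 0.82 (edgeR adjusted p = 0.0566) and the kinase gene Rock1 at 0.57 (adjusted p = 0.15). With GC and length trends removed, Wasl stood at 0.71 and Rock1 at 0.12. Transcription factors known to act on epithelial junction genes were negative in 7 of 10 tested (55.3% of all), with a median of −0.40. Cdx1 and Cdx2, the caudal-type intestinal factors, stood at −0.96 and −0.82 on the log2 scale in edgeR, short of the threshold (adjusted p = 0.0694 and 0.0815). With GC and length trends removed they stood at −0.27 and −0.36. For Cdx2, control 4 held 132 CPM, below every NAP library (lowest 149 CPM).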

How the data were processed

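Poly(A)-selected RNA sequencing was analysed for 11 libraries, 5 control and 6 NAP, grouped and numbered by their titles. The authors deposited whole-number counts per gene and a table of FPKM values. Per the submitters' processing notes, Trimmomatic 0.39, HISAT2 2.2.1, featureCounts of Subread 2.0.8 and GRCm39 were used. The sources used here do not give the strand setting or the handling of multi-mapping reads. FPKM entered only 2 alternatives.

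Counts were filtered with filterByExpr, scaled by TMM and fitted in edgeR 4.0.16 under R 4.3.3 (robust quasi-likelihood, NAP minus control) over 14840 genes, with Benjamini-Hochberg adjustment and a threshold of 0.05. SE is the log2 fold change over the square root of the F statistic. Logged CPM used a prior count of 2. Levels per kilobase used the deposited gene length. GC content is the mean over GENCODE M21 transcripts (GRCm38), found for 84.0% of tested genes and all 9 members; genes without one were left uncorrected. The procedure was tested on simulated counts. It recovered 35 of 100 genes given an absolute log2 change of 1 and 86 of 100 given 2, and called 5 unchanged genes. The changed genes were drawn at random over a wide range of levels. Their spread followed the fitted trend with level and not each gene's own value. A change of about 2-fold was thus often missed in the simulation, and the rate for these 9 genes was not measured. Alternatives used DESeq2 1.42.0, limma 3.58.1, other scalings, filters and thresholds, libraries left out, GC and length trends removed (lowess, span 0.3) and 1 marker score as covariate.

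The members and lists were chosen with earlier results of these data known. Beyond the 9 genes, each pathway list contributed its called genes and the next 2 by p, and Ocln and Tjp3 their 3 nearest profiles. The 10 marker lists were those of epithelium, stem cells, colonocytes, goblet, enteroendocrine, tuft, squamous, fibroblast and muscle, immune and endothelial cells. One marker gene passed, the colonocyte gene Ceacam1 (higher, named after its value was seen). Goblet, enteroendocrine, tuft and squamous markers summed to 2220 to 7515, 200.3 to 590.3, 1.46 to 4.62 and 60.7 to 185 CPM.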

Additional observations from a re-analysis of the deposited data

Results flagged for a closer look

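Over 60 groups of values of the named genes, 1 held a library far from the others by Dixon's criterion, where chance gives about 1 group in 20. For Mpp5, the PALS1 gene, control 3 held 93.6 CPM against 67.4 CPM in the next highest control. Without control 3 the log2 fold change of Mpp5 was 1.12 (edgeR adjusted p = 0.0470), against 0.98 with all libraries.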

How the results depend on the processing

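The log2 fold changes of the 9 genes were recomputed under 27 alternatives each. In 225 cases direction and side of the threshold were the same, in 12 a call was gained in the same direction and in 6 the sign turned. The turned values were small: Marveld3 at 0.080 without controls 2 and 5, at 0.25 with the GC trend removed and at 0.23 with GC and length trends removed, Patj at −0.014 with both trends removed, and Pard3 at −0.073 with the length trend and −0.021 with both trends removed. Of the 9 genes, 4 passed in DESeq2, 4 with the marker score as covariate, 3 at an adjusted p of 0.1 (9.97% of all genes) and 1 without controls 1 and 4, and 0 to 2 with 1 library left out. Over all genes the count of 315 was 41 with library totals alone, 89 with no filter on low counts, 1721 in DESeq2, 824 without controls 2 and 5, 1315 without controls 1 and 4, 45 with the GC trend removed, 0 with GC and length trends removed (2743 at an unadjusted p below 0.05), 3281 with the marker score, 1480 at an adjusted p of 0.1 and 0 at 0.01. It ranged from 0 to 814 with 1 library left out, and was 0 without control 1, 2 or 5 or NAP 2, 4 or 5 (2614 to 3311 at an unadjusted p below 0.05 in edgeR), 158 and 112 without control 3 and NAP 6, and 814 and 790 without NAP 1 and NAP 3; the cause was not tested. Whether the replicate numbers pair the libraries was not settled. Correlations of same-numbered deviations were 0.42, 0.34, −0.07, −0.30 and 0.30 for replicates 1 to 5. For controls 1 and 2 the same-numbered NAP library correlated best, and for controls 3, 4 and 5 another did. With the replicate block edgeR called 0 genes (2903 at an unadjusted p below 0.05) and 0 of the 9, with Ocln at 1.06. Each of the 9 genes had at least 328 counts in every library.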
